A study of Mus musculus with 6 samples.

Results

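The membrane of the red blood cell is held in shape by a protein skeleton that lies beneath it, and the genes for this structure were followed in megakaryocyte–erythroid progenitors (MEPs), the bone marrow cells that give rise to red blood cells and to platelet-forming megakaryocytes. They were taken by name: *Sptb*, *Ank1*, *Epb41*, *Epb42*, *Add2*, *Slc4a1*, *Rhag* and *Ermap*. All 8 were found among the 12101 genes of the expression table, and all 8 passed the filter on low values, at least 1 count per 1000000 reads (CPM) in at least 3 libraries.

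In the skeleton, long spectrin tetramers, with β-spectrin (*Sptb*) as a subunit, form a mesh whose ends meet short actin filaments at junctions built with protein 4.1 (*Epb41*) and adducin (*Add1*, *Add2*). Ankyrin-1 (*Ank1*) and protein 4.2 (*Epb42*) tie the mesh to the anion exchanger band 3 (*Slc4a1*) in the membrane, and the Rh-associated glycoprotein (*Rhag*) carries the Rh blood group proteins in the same complexes. *Ermap* encodes an erythroid membrane protein of the butyrophilin family that bears a human blood group. Erythroid progenitors switch these genes on at different stages, and band 3 is known as one of the late ones.

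The mice of both groups were adult *Nanog*-tg animals of CD-1 strain in the labels. They carry the *M2-rtTA* activator at the *Rosa26* locus, which is active in most tissues, and a *Nanog* cDNA behind a tetO promoter at *Col1a1*, so induction was not restricted to MEPs. The 3 dox-treated replicates came from mice given doxycycline (dox) in the drinking water for 5 days, and the 3 untreated replicates from mice of the same genotype without dox. With no dox-treated mice lacking the transgene here, effects of dox itself and of *Nanog* cannot be told apart, and the labels do not say whether each replicate is a separate animal, so the p-values measure the spread between these libraries.

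The libraries held between 11264803 and 16153600 reads on listed genes, and the 8 genes between 85 and 11942 reads in any library. *Nanog* had 15959 to 19609 reads with dox and 1 to 13 without. Dox-treated replicate 3 stood apart, at -14.8 on the first principal component, where the other dox-treated libraries lay at -57.5 and -56.3 and the untreated ones between 35.1 and 54.2. The main results are therefore given with and without it. The MEP markers *Kit*, *Gata1*, *Klf1* and *Tal1* had at least 2004 reads in every library. Of 8 such markers 0 passed the adjusted test, but 6 (*Kit*, *Gata1*, *Klf1*, *Tal1*, *Gfi1b* and *Epor*) were lower in every dox-treated library than in any untreated one, beside 18.2% of all genes tested, from -0.61 on the log2 scale for *Klf1* to -0.19 for *Tal1*, and the mean of *Gata2* was 2.75-fold higher (limma, adjusted p = 0.070). Without dox-treated replicate 3, 3 of these markers (*Gata1*, *Klf1* and *Epor*) passed as lower and 1 (*Gata2*) as higher, where 14.0% and 14.9% of all genes did. *Cd34*, whose product the sort excludes, had 978 to 2332 reads with dox and 322 to 741 without. *Fcgr3*, whose product the sort also excludes, went the other way, with 95 to 153 reads with dox and 154 to 359 without. *Fcgr2b*, of the same gate, overlapped between groups, at 66 to 144 reads with dox and 69 to 212 without. None of these 3 genes passed the adjusted limma test. *Ly6a*, whose protein Sca-1 the sort excludes as well, is not listed in the table. Markers of some other cells moved with the groups. The summed level of 14 of 14 granulocyte-monocyte markers was 541.4 to 808.9 CPM with dox and 2439 to 5622 CPM without, that of 11 of 13 megakaryocyte markers 236.0 to 606.4 against 141.7 to 185.9 CPM, that of 5 of 10 mast cell markers 103.6 to 154.1 against 25.7 to 42.5 CPM, and that of 5 of 10 lymphoid markers 9.79 to 24.1 against 8.23 to 15.7 CPM. The sums did not overlap between groups for the first 3 lists and overlapped for the lymphoid one. Single markers did not all follow their sum. Of the 14 granulocyte-monocyte markers 10 passed as lower. Among the 11 megakaryocyte markers *Pecam1*, *Gp9* and *Gp1ba* passed as higher and *Vwf* as lower (-1.31 on the log2 scale, limma, adjusted p = 0.018). Their log2 fold changes were positive for 7 and negative for 4. Besides *Vwf* the negative ones were *Gp1bb* (-1.32), *Pf4* (-0.998) and *Treml1* (-0.34), which did not pass. *Itga2b*, the highest of these markers in each dox-treated library, did not pass either (limma, adjusted p = 0.069). It was at 66.9 to 319.1 CPM with dox and 24.1 to 39.3 CPM without. Among the mast cell markers *Cpa3*, *Ms4a2* and *Slc18a2* passed as higher, and *Gzmb* and *Mcpt8* had negative values that did not pass. The markers of each list not counted here are not listed in the table, among them the mast cell genes *Fcer1a*, *Cma1* and *Tpsb2*. The part of these shifts in the results below was not tested.

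Promoter sequences are shown for members of both kinds, those lower with dox (*Ermap*, *Epb42*, *Add2*) and one that was not (*Rhag*), because erythroid genes are commonly read through GATA and KLF sites near the start. The windows are those of RefSeq on GRCm38.p6, 250 bases before to 50 after the annotated start, at chr4:119189946-119190245 on the minus strand, chr2:121036828-121037127 on the minus strand, chr6:86028431-86028730 on the plus strand and chr17:40810899-40811198 on the plus strand. Capitals mark the GATA words, which are AGATAA with its forms that begin with T or end with G, and the KLF words, CCNCNCCC, each on either strand.
*Ermap*: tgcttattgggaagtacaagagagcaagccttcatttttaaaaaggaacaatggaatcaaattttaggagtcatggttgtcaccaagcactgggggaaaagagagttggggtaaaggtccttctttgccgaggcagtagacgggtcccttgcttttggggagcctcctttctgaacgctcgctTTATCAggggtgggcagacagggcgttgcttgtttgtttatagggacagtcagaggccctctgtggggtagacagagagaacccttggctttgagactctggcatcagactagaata
*Epb42*: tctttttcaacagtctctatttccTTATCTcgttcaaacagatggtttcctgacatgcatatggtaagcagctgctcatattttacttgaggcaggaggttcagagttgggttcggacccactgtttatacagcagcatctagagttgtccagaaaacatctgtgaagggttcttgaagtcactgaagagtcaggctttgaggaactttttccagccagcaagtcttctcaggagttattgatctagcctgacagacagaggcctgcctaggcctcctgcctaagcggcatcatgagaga
*Add2*: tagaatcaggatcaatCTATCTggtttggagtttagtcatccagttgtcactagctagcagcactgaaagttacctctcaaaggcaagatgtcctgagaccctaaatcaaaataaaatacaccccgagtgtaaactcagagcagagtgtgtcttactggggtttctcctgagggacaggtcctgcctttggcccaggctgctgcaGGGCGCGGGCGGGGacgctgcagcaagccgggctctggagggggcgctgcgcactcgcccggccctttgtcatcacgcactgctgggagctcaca
*Rhag*: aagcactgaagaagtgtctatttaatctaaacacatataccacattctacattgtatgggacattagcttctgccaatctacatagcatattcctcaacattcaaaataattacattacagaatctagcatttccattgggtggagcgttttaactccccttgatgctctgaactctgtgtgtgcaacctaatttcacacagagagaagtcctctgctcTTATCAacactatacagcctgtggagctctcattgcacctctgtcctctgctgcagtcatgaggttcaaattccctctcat
The GATA word of *Ermap* begins 67 bases before the start and that of *Rhag* 31 bases before it, both with the letters TTATCA, whereas those of *Epb42* and *Add2* begin 226 and 234 bases before it. RefSeq windows matched 6 of the 8 genes, and *Ank1* and *Slc4a1* had none. A GATA word stood in 7 of the 8 windows of these 6 genes, against 29.6% of 32544 windows over all genes. A KLF word stood in 4 of the 8, against 49.7%, and TAATGG, a core that NANOG binds, in 0 of the 8, against 7.69%. A GATA word was thus present both in genes that were lower with dox and in *Rhag*. In *Add2* a pair of KLF words that overlap begins 45 and 39 bases before the start.

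At a limma p under 0.05, adjusted by Benjamini–Hochberg over 12088 genes, 4 of the 8 genes were lower in dox-treated MEPs, where 3.18% of all genes tested were called lower. The 4 were *Epb42*, *Add2*, *Ermap* and *Ank1*, with falls of the mean from 1.63-fold to 2.85-fold. The other 4, *Sptb*, *Epb41*, *Slc4a1* and *Rhag*, did not pass the test, and 0 of the 8 were higher, at an adjusted or an unadjusted p under 0.05, where 4.59% (adjusted) and 15.6% (unadjusted) of all genes were called higher. At an unadjusted p under 0.05 the same 4 were lower, beside 13.6% of all genes. The median log2 fold change of the 8 genes was -0.60, and that of all genes tested was -0.03. Groups that did not overlap, with every dox-treated library below every untreated one, were seen for the same 4 genes, and for 18.2% of all genes tested. Because the samples are bulk RNA, fewer cells that express a gene and less of its RNA per cell cannot be told apart.

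**Figure D1:**
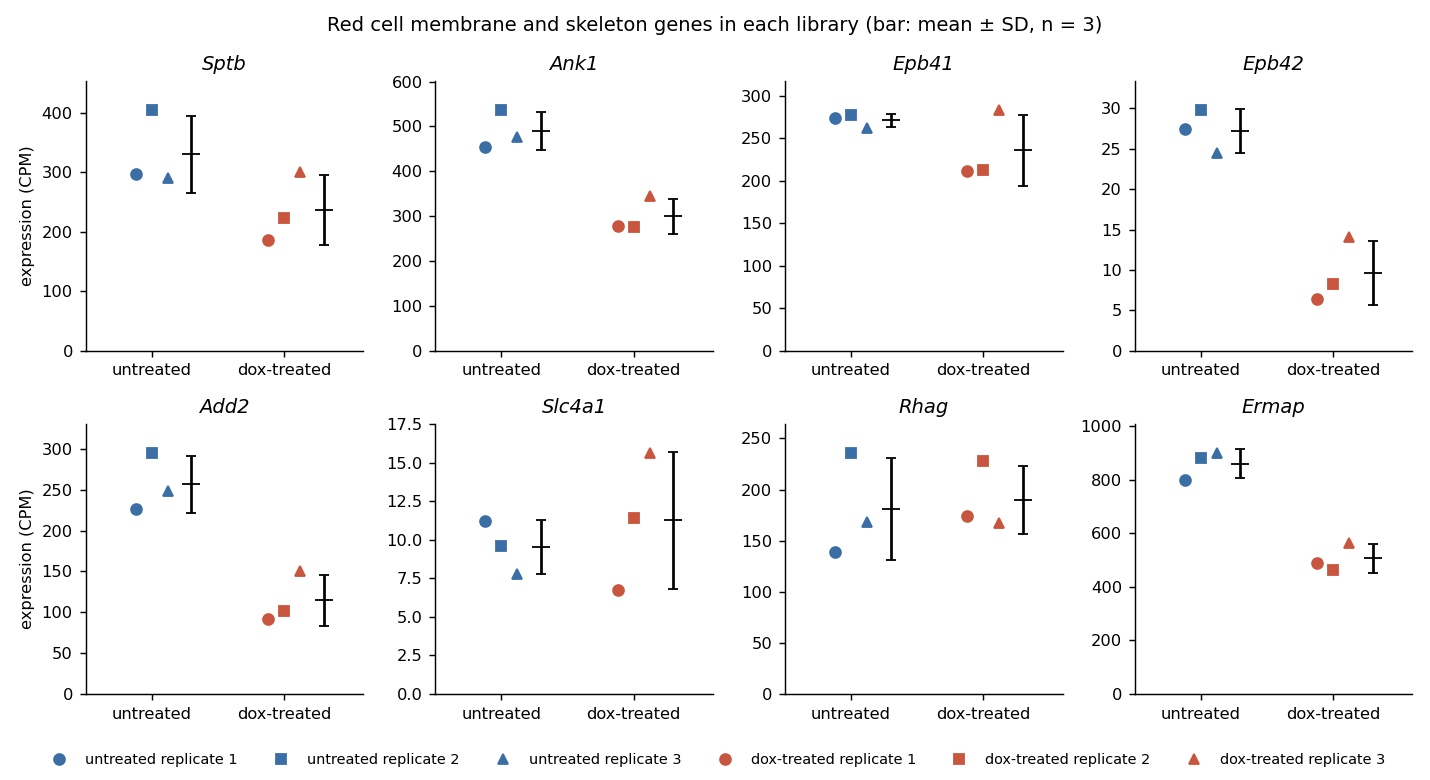
Expression in CPM (vertical axes, linear, from 0) of the 8 genes in each of the 3 untreated (blue) and 3 dox-treated (red) libraries, with the marker shape giving the replicate number and the black bar the mean ± SD (n = 3). The groups are apart for *Ank1*, *Epb42*, *Add2* and *Ermap* and overlap for the other 4 genes, and dox-treated replicate 3 is the highest dox-treated library in 7 of the 8 panels, all but *Rhag*.

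The ankyrin and protein 4.2 link to band 3 was examined first. *Ank1* (ENSMUSG00000031543, chromosome 8 of NCBIM37, 24085316 to 24260969) was at 278.1, 275.2 and 345.4 CPM in replicates 1, 2 and 3 under dox, against 454.8, 536.8 and 475.8 CPM without dox. Each dox-treated library was below each untreated one, and the untreated mean of 489.1 ± 42.6 and the dox-treated mean of 299.5 ± 39.7 CPM (SD, n = 3) differed 1.63-fold, or by a fitted -0.71 ± 0.14 on the log2 scale (SE; limma, adjusted p = 0.039). Of its exon length, 6.37% overlaps *Gm15816* on the opposite strand, and the use of strand in counting is not given in the sources used here. *Epb42* (ENSMUSG00000023216, chromosome 2, 120843627 to 120862808) was expressed at a low level and fell most of the 8 genes. It had 87, 110 and 218 reads with dox, or 6.44, 8.23 and 14.0 CPM, and 352, 403 and 268 reads without, or 27.4, 29.8 and 24.4 CPM. The highest dox-treated library, replicate 3, was below the lowest untreated one, and the means were 9.56 ± 3.96 under dox and 27.2 ± 2.70 CPM without it (SD, n = 3), 2.85-fold apart. The fitted change was -1.58 ± 0.29 on the log2 scale (SE; limma, adjusted p = 0.035).

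*Slc4a1* (ENSMUSG00000006574, chromosome 11, 102210138 to 102227517), the gene of band 3 to which both proteins bind, was at 6.74, 11.4 and 15.6 CPM under dox and at 11.2, 9.57 and 7.78 CPM without it. The dox-treated libraries spanned the untreated ones on both sides, from 91 reads in replicate 1 to 243 in replicate 3. Its log2 fold change was 0.17 with a 95% interval from -0.63 to 0.98 (adjusted p = 0.745, limma). Without dox-treated replicate 3 the value was -0.10.

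Among the skeleton genes, *Add2* (ENSMUSG00000030000, chromosome 6, 86028078 to 86069549), the gene of β-adducin, was at 92.1, 101.8 and 150.3 CPM with dox and at 227.2, 295.0 and 248.3 CPM without. The groups did not overlap, with a mean that fell 2.24-fold or by a fitted -1.19 ± 0.22 on the log2 scale (SE; limma, adjusted p = 0.035). *Sptb* (ENSMUSG00000021061, chromosome 12, 77681475 to 77811534), the gene of erythroid β-spectrin, was at 185.8, 223.5 and 300.9 CPM with dox and at 296.8, 404.8 and 289.6 CPM without. The third dox-treated library lay inside the untreated range, and the log2 fold change of -0.49 (95% interval -1.05 to 0.06, adjusted p = 0.21, limma) did not pass the test. *Epb41* (ENSMUSG00000028906, chromosome 4, 131479328 to 131631236), the gene of protein 4.1, was at 211.3, 212.7 and 283.6 CPM with dox and at 274.1, 277.4 and 262.6 CPM without. Here dox-treated replicate 3 was the highest of all 6 libraries, and the log2 fold change was -0.22 (95% interval -0.57 to 0.14, adjusted p = 0.36, limma). Of its exon length, 0.998% and 1.56% overlap *Gm13063* and *Gm10300* on the opposite strand.

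Of the membrane proteins, *Ermap* (ENSMUSG00000028644, chromosome 4, 118848062 to 118862616) was at 489.2, 463.5 and 564.8 CPM with dox and at 797.8, 882.5 and 899.1 CPM without. The groups did not overlap, and of the 8 genes it had the smallest standard error relative to its change. Its fitted change was -0.77 ± 0.12 on the log2 scale (SE; limma, adjusted p = 0.024). *Rhag* (ENSMUSG00000023926, chromosome 17, 40948075 to 40977703) was at 174.5, 227.5 and 166.8 CPM with dox and at 139.1, 235.6 and 168.2 CPM without. Replicate 2 was the highest library in both groups, the groups overlapped fully, and the log2 fold change was 0.09 (95% interval -0.48 to 0.66, adjusted p = 0.82, limma). By two-sided exact permutation of the libraries, *Ank1*, *Epb42*, *Add2* and *Ermap* each had p = 0.1, the lowest value possible with 3 against 3, and the other 4 genes had p from 0.3 to 0.8.

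For 7 of the 8 genes, all but *Rhag*, replicate 3 had the highest value of the dox-treated libraries, nearer to the untreated range than the other two for each gene that was lower. Markers of more advanced erythroid cells (12 of 14 symbols in the table) summed to 7643 CPM in it, 4044 and 3932 CPM in dox-treated replicates 1 and 2 and 6005 to 6649 CPM in the untreated libraries. Most of this sum was *Car1* and *Car2*, at 3359 and 3014 CPM in replicate 3, and single globin genes differed, with *Hba-a1* at 19.8, 42.0 and 49.9 CPM under dox and 54.2 to 62.2 CPM without it, and *Hbb-b1* at 26.8, 83.3 and 74.8 CPM under dox and 21.5 to 28.9 CPM without it. Of these 12 markers 1 passed as higher, *Bpgm* (limma, adjusted p = 0.036), and 0 as lower, beside 4.59% and 3.18% of all genes. At an unadjusted p under 0.05, 3 were higher and 2 lower, beside 15.6% and 13.6%. Their log2 fold changes were positive for 6 and negative for 6. Without dox-treated replicate 3, 1 passed as higher and 4 as lower, beside 14.9% and 14.0% of all genes. Whether these markers bear on the 8 genes was not tested. Without dox-treated replicate 3, 5 of the 8 genes passed the same limma test as lower, where 14.0% of all genes tested were called lower, and *Epb41* joined the 4 (log2 fold change -0.36, adjusted p = 0.035), with *Sptb* at -0.68 (adjusted p = 0.056). In that fit the log2 fold changes were -1.90 for *Epb42*, -1.40 for *Add2*, -0.85 for *Ermap* and -0.82 for *Ank1*, and the median of the 8 genes was -0.75. Without any other single library the count was 0 of 8, although the same 4 genes had an unadjusted p under 0.05 each time. The share of all genes called lower was then 0.662% without dox-treated replicate 1, 0.753% without dox-treated replicate 2, and 0.654%, 1.04% and 0.298% without untreated replicate 1, 2 and 3. At an unadjusted p under 0.05 it was 8.91%, 8.58%, 10.9%, 9.26% and 9.16% in the same order. Leaving out dox-treated replicate 1 or 2 or untreated replicate 1, 2 or 3 gave adjusted p from 0.071 to 0.098 for *Ermap*, from 0.082 to 0.128 for *Add2*, from 0.088 to 0.129 for *Epb42* and from 0.092 to 0.143 for *Ank1* (limma), with log2 fold changes that stayed between -1.66 and -0.64.

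**Figure D2:**
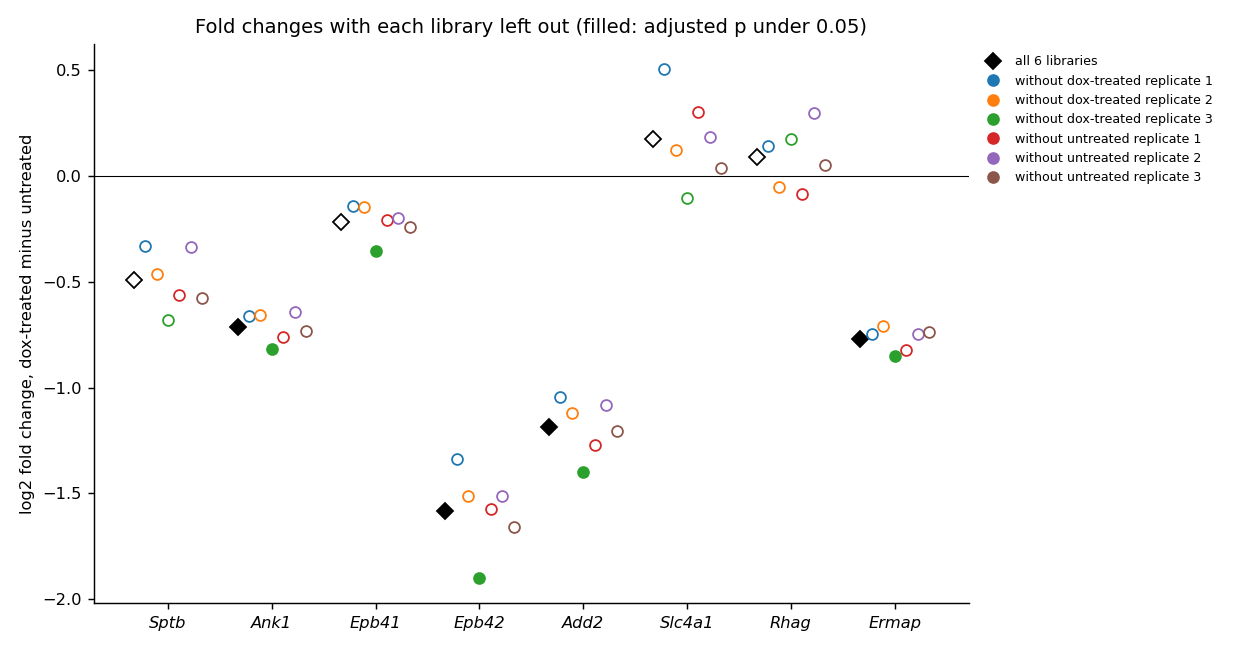
Log2 fold change of each gene (vertical axis, dox-treated minus untreated) with all 6 libraries (black diamond) and with each library left out in turn (coloured circles), filled where the adjusted p is under 0.05 (limma). *Ank1*, *Epb42*, *Add2* and *Ermap* stay below 0 in every fit, between -1.90 and -0.64, and *Slc4a1* and *Rhag* lie on both sides of 0.

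Levels were compared between genes per kilobase of annotated exon. In untreated MEPs the order was *Ermap* (162.3 ± 10.3 CPM per kb, SD, n = 3), *Add2* (82.3 ± 11.1), *Rhag* (77.4 ± 21.2), *Ank1* (36.1 ± 3.15), *Epb41* (29.8 ± 0.855), *Sptb* (27.2 ± 5.32), *Epb42* (5.02 ± 0.499) and *Slc4a1* (1.95 ± 0.354). *Add2* and *Rhag* overlapped, as did *Epb41* and *Sptb*, and the other neighbours did not. With dox *Ermap* (95.5 ± 9.94 CPM per kb, SD, n = 3) and *Rhag* (81.1 ± 14.1) overlapped at the top. *Add2* followed without overlap at 29.5 to 48.2 CPM per kb, overlapping *Epb41* (25.9 ± 4.53), which overlapped *Ank1* (22.1 ± 2.93), which overlapped *Sptb* (19.5 ± 4.83), and *Slc4a1* (2.30 ± 0.909) and *Epb42* (1.77 ± 0.731) overlapped at the bottom. The gene of band 3 was between 1.38 and 3.19 CPM per kb in all 6 libraries.

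Ratios of 10 fixed pairs of genes within each library, which do not depend on the factor by which a library is scaled, compared the members and their partners with each other. The log2 ratio of *Epb42* to *Slc4a1* was -0.06, -0.47 and -0.16 under dox and 1.29, 1.64 and 1.65 without it. The groups were further apart here than for any other pair, by -1.76. The log2 ratio of *Add2* to its partner *Add1*, the gene of α-adducin, differed by -1.07 and that of *Epb42* to *Ank1* by -0.87, and neither overlapped between groups. *Add1* itself had means of 287.2 ± 11.5 under dox and 310.9 ± 19.6 CPM without it (SD, n = 3). The ratio of *Rhag* to *Ank1* was higher with dox in every library (by 0.80), as was that of *Epb41* to *Sptb* (by 0.28), but the latter was 0.14 without untreated replicate 2 (p = 0.3) and 0.19 without dox-treated replicate 1 (p = 0.5, exact permutation). By two-sided exact permutation these 5 pairs each had p = 0.1, the lowest that is possible here, and 0.2 after Benjamini–Hochberg adjustment over the 10 pairs, so none passed the adjusted test. For *Ermap* and *Ank1* the groups overlapped, with a log2 ratio of 0.76 ± 0.05 (SD, n = 3) with dox and 0.82 ± 0.10 (SD, n = 3) without (two-sided exact permutation test, p = 0.5). The ratios of *Sptb* to *Ank1* (0.22), of *Slc4a1* to *Ank1* (0.89) and of *Rhag* to *Rhd* (0.77) overlapped between groups. Without dox-treated replicate 3 the differences were -1.80 for *Epb42*/*Slc4a1*, -1.26 for *Add2*/*Add1*, -1.08 for *Epb42*/*Ank1*, 0.99 for *Rhag*/*Ank1* and 0.32 for *Epb41*/*Sptb*. That of *Rhag*/*Rhd* was then 1.19 with groups that did not overlap (p = 0.1, exact permutation) and 0.45 without dox-treated replicate 2, and that of *Sptb*/*Ank1* was 0.14 without dox-treated replicate 3 and 0.33 without dox-treated replicate 1.

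**Figure D3:**
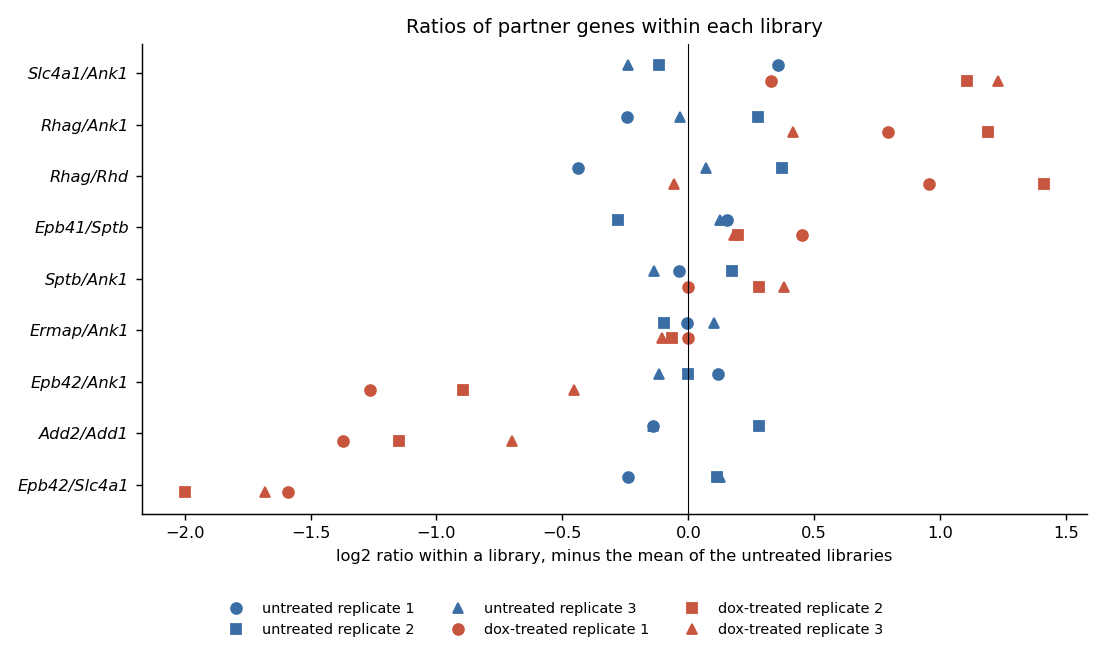
Log2 ratio of 9 pairs of genes within each library (horizontal axis, with the mean of the untreated libraries set to 0), blue for untreated and red for dox-treated libraries, with marker shapes for replicates 1 to 3. *Epb42*/*Slc4a1*, *Add2*/*Add1* and *Epb42*/*Ank1* lie lower in every dox-treated library, *Rhag*/*Ank1* and *Epb41*/*Sptb* higher, and the other 4 pairs overlap.

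The rest of the red cell membrane and skeleton was read through a further list of 28 genes, of which 27 were in the table and tested. By limma, 1 of them was lower and 0 were higher once p was adjusted, beside 3.18% and 4.59% of all genes. At an unadjusted p under 0.05, 6 were lower and 4 higher, beside 13.6% and 15.6% of all genes. The median log2 fold change was -0.16, beside -0.03 for all genes tested. The gene called lower was *Kcnn4*, which encodes the calcium-activated potassium channel of the red cell, at 142.9, 130.3 and 140.7 CPM with dox and 200.03, 240.3 and 229.5 CPM without (-0.69 ± 0.11 on the log2 scale, SE; limma, adjusted p = 0.027). Its adjusted p was between 0.064 and 0.116 without any single library other than dox-treated replicate 3 and 0.020 without that one. *Rhd*, the gene of the Rh protein that RhAG carries, was at 112.5, 106.9 and 217.2 CPM with dox and 236.3, 228.2 and 200.8 CPM without. Its dox-treated replicate 3 lay inside the untreated range, and the other two lay below it. Without dox-treated replicate 3, 8 of the 27 were lower and 2 were higher, where 14.0% and 14.9% of all genes tested were called. Among those lower were *Kcnn4*, *Dmtn*, *Rhd*, *Kel*, *Slc14a1*, *Stom* and *Abcb6*, and *Tpm1* and *Icam4* were higher. All but *Rhd* and *Kcnn4* were named after their values were seen.

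**Figure D4:**
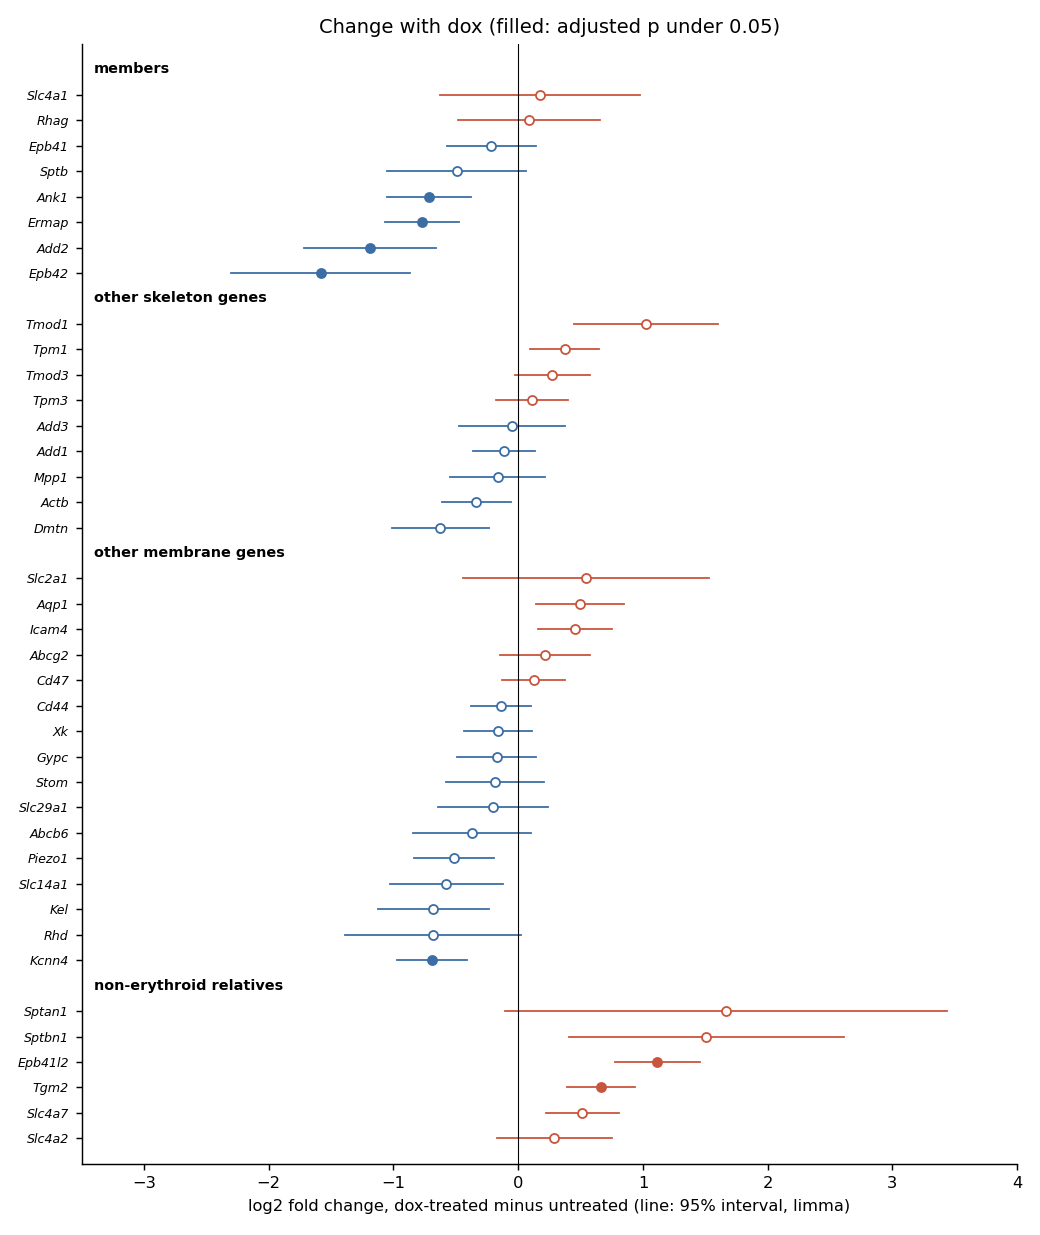
Log2 fold change (horizontal axis, dox-treated minus untreated) of the 8 genes, of 25 of the other skeleton and membrane genes and of 6 non-erythroid relatives, with the 95% interval (limma) as a line and a filled point where the adjusted p is under 0.05. Filled points are 4 of the 8 genes and *Kcnn4*, all below 0, and *Epb41l2* and *Tgm2*, both above 0.

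Several of the proteins have non-erythroid relatives in the same gene families, not all of which are skeleton proteins. Of 13 such genes listed, 7 were in the table and *Ank2*, *Epb41l1*, *Epb41l3*, *Slc4a5*, *Rhbg* and *Rhcg* are not listed there. *Ank3*, the gene of ankyrin-G, had 94, 81 and 28 reads with dox and 2, 1 and 1 reads without. Its pooled reads were 44.5-fold higher with dox (exact binomial 95% interval 17.1 to 165.0, counting error only). It passed the filter on low values through the dox-treated libraries alone, where it is high, so it is left out of the counts that follow. The other 6 had log2 fold changes from 0.29 to 1.67, and 2 of them were higher at an adjusted p under 0.05 (limma), where 4.59% of all genes were. *Epb41l2*, the gene of protein 4.1G, was at 37.0, 36.9 and 34.6 CPM with dox and 19.2, 14.2 and 17.1 CPM without (1.11 ± 0.14 on the log2 scale, SE; limma, adjusted p = 0.015). *Tgm2*, a transglutaminase gene from the family to which protein 4.2 belongs, was at 75.4, 62.4 and 69.1 CPM with dox and 42.7, 45.0 and 42.7 CPM without, 0.66 higher on the log2 scale (adjusted p = 0.028). Without dox-treated replicate 3 the count was 5 of 6, where 14.9% of all genes were called higher. It was 0 without dox-treated replicate 1 or 2 or untreated replicate 3, with 4 at an unadjusted p under 0.05 in each, beside 11.4%, 10.8% and 13.3% of all genes, and 1 without untreated replicate 1 or 2. The share of all genes called higher was 0.836% and 0.761% without dox-treated replicate 1 and 2, and 1.13%, 1.18% and 0.819% without untreated replicate 1, 2 and 3. Of the 6 relatives, 4 had every dox-treated library above every untreated one, beside 17.7% of all genes.

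The non-erythroid spectrin genes, named after their values were seen, rested on dox-treated replicates 1 and 2. *Sptbn1* was at 239.9, 246.9 and 94.9 CPM with dox and at 85.5, 42.9 and 66.5 CPM without, and *Sptan1* at 160.6, 200.7 and 37.6 CPM with dox and at 52.5, 18.7 and 38.5 CPM without. In dox-treated replicate 3 *Sptbn1* was close to untreated replicate 1, and *Sptan1* was within the untreated range (adjusted p = 0.092 and 0.19, limma, and 0.018 and 0.026 without that replicate). Per kilobase of exon, *Sptb* was 5.00 to 13.6 times the level of *Sptbn1* in untreated libraries and 1.115, 1.30 and 4.57 times its level in dox-treated replicates 1, 2 and 3. *Epb41* was 3.34 to 4.80 times the level of *Epb41l2* with dox and 8.38 to 11.5 times without. The ratios of *Slc4a1* to its relatives overlapped between groups. To *Slc4a2* it was 0.150 to 0.493 with dox and 0.215 to 0.344 without, and to *Slc4a7* 0.144 to 0.311 and 0.209 to 0.303. That of *Epb42* to *Tgm2* was 0.073 to 0.173 with dox and 0.486 to 0.564 without. These ratios are given as a description with no test.

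**Figure D5:**
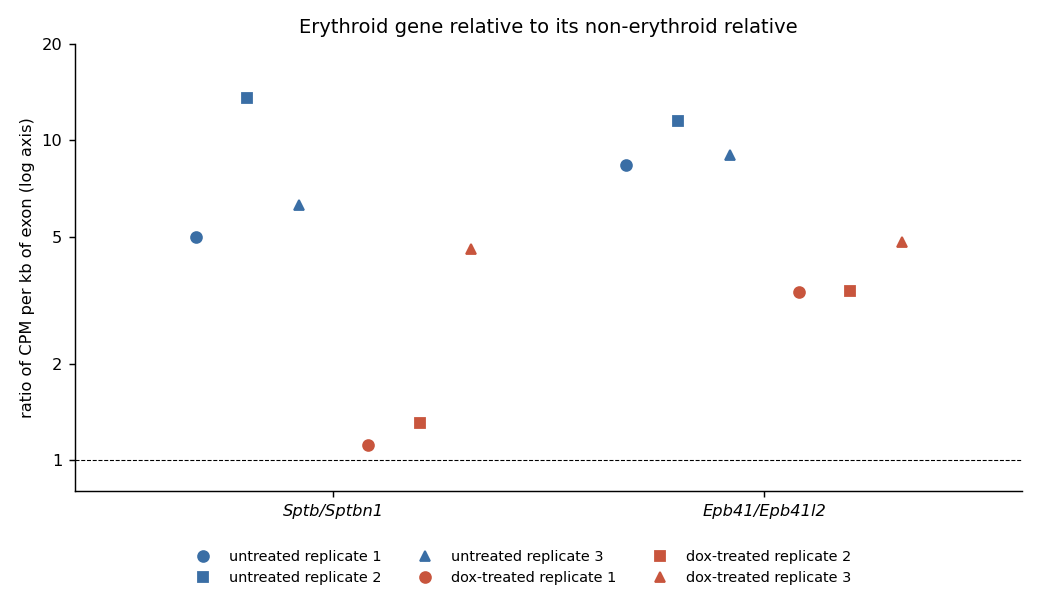
Ratio of an erythroid skeleton gene to its non-erythroid relative in each library, as CPM per kilobase of exon (vertical axis, log scale, with 1 as the dashed line), blue for untreated and red for dox-treated libraries. The dox-treated libraries lie below the untreated ones for *Sptb*/*Sptbn1* and *Epb41*/*Epb41l2*, with dox-treated replicate 3 the nearest to them for each pair. The ratios of *Slc4a1* to *Slc4a2* and to *Slc4a7*, which are not drawn, overlapped between groups.

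The 8 genes differed in how they varied over the 6 libraries. *Add2* and *Ank1* followed each other most closely (Pearson's r = 0.996), and *Epb42* and *Ermap* followed both (r from 0.954 to 0.988 for the other pairs among these 4). *Sptb* and *Epb41* lay between, with r from 0.79 to 0.90 and from 0.74 to 0.86 with the 4. *Slc4a1* and *Rhag* followed none of the 4 (r from -0.175 to 0.143). These values describe 6 points that share libraries and split into 2 groups. The genes most like the mean of the 8, among 9985 others with a mean of at least 5 CPM, were *Mybl2*, a cell cycle transcription factor gene (r = 0.999), *Limd1* (0.997), *Rmi1*, a DNA repair gene (0.996), *Gm13072* (0.996) and *Mrps27*, a mitochondrial ribosomal protein gene (0.993). Their log2 fold changes lay between -0.52 and -0.30, with adjusted p from 0.082 to 0.17 by limma, so none of these 5 passed. All 5 passed as lower without dox-treated replicate 3 (limma, adjusted p from 0.022 to 0.0498). The 5 were chosen for following a mean that is itself lower with dox. Their direction is thus fixed by the choice, and these p-values are no test of it.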

How the data were processed

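The libraries came from MEPs sorted as lineage-, cKit+, Sca1-, CD34- and CD16/32-. According to the methods, the authors trimmed adapters (Cutadapt), counted reads against Ensembl transcripts of NCBIM37 (RSEM) and ran the normalization of limma. The deposited values are log2 CPM, with 0.5 reads added to each gene. The filter on low genes, the normalization method and the use of strand are not given in the sources used here. Taking the lowest value of each library as 0 reads returned whole reads for every value, to within 1e-06.

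The 8 genes and the further lists were chosen with earlier results of these data known. All 12088 genes at 1 CPM or more in 3 or more libraries were fitted in limma 3.58.1 (R 4.3.3) on the 6 libraries, without a block. The text names the 8 genes, the ratio partners, listed genes past the threshold, the 5 genes of most like pattern, and *Nanog*. Some items of these lists and pairs are counted but not reported here. Positions and exon lengths are those of GENCODE on NCBIM37, matched for 12067 genes. *Cd47* had 2 identifiers, and the one with more reads was used. Alternatives changed the block, the reads added, the scaling, the low-value filter, the weights, the variance model and the libraries kept. Ratios, tables and figures were made in Python 3.11.15 with pandas 2.3.3, scipy 1.17.1 and matplotlib 3.10.9. Intervals on reads express counting error alone, as PCR copies are not separate molecules.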

Additional observations from a re-analysis of the deposited data

How the results depend on the processing

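Of the 16 alternatives, *Ank1*, *Epb42*, *Add2* and *Ermap* kept their direction in all 16 and an adjusted p under 0.05 in 10, with log2 fold changes from -0.82 to -0.54, -1.90 to -1.34, -1.40 to -1.05 and -0.85 to -0.59. *Sptb* and *Epb41* also kept their direction and passed in 1 and 2 of the 16. *Slc4a1* had the opposite sign with array quality weights (-0.054), quantile normalization (-0.11) and without dox-treated replicate 3 (-0.10), and *Rhag* without dox-treated replicate 2 (-0.05) and without untreated replicate 1 (-0.084). Over the fits without one library, *Slc4a1* ran from -0.10 to 0.50 and *Rhag* from -0.084 to 0.30. The cause was not tested. Scaling by total reads moved the median of all genes tested to 0.08, and the median of the 8 genes to -0.49.

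In the fit with a replicate block, 0 of the 8 genes passed the adjusted limma test, with 4 lower at an unadjusted p under 0.05 (beside 8.17% of all genes), and 29 of all genes were lower and 53 higher. For the 10 ratio pairs the lowest p that exact sign flips within pairs can give is 0.25. Same-numbered libraries had correlations of deviations of 0.02, -0.12 and -0.30, so the number was not taken to pair them. Leaving out each library gave from 0 to 5 of the 8 genes lower, from 36 to 1687 of all genes lower and from 92 to 1801 higher, from 0 to 8 of the 27 further membrane and skeleton genes lower and from 0 to 2 higher, and from 0 to 5 relatives higher, or 0 to 6 with *Ank3*. All genes lower and higher numbered 747 and 909 with a mean-variance trend and 2601 and 2515 with array quality weights, where 6 of the 8 genes were lower.

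For the further lists the same alternatives were chosen after seeing the data. Of the 27 genes, 0 were lower with the block (beside 0.240% of all genes), 3 with at least 5 CPM (4.63%), 4 with the trend (6.18%), 4 with voom weights (4.72%) and 10 with array quality weights (21.5%), and 1 was higher with the trend (7.52%), 4 with array quality weights (20.8%), 2 with total reads scaling (5.22%) and 1 with quantile normalization (5.36%). Relatives higher, *Ank3* left out, numbered 0 with the block (0.438%), 4 with the trend and 6 with array quality weights, and counting *Ank3*, which passed the filter through the dox-treated libraries alone, would make these 1, 5 and 7. *Epb42* and *Slc4a1* had the fewest reads, down to 85 in a library, which alone gives a counting error of 10.8%.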
